A study of Mus musculus with 12 samples.

Results

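Transcripts that carried the same protein identifier were examined in the gene models deposited for a study of cocaine in the mouse nucleus accumbens, a brain region of reward. In these models coding transcripts carry a protein identifier (p_id) and spliced transcripts a start site identifier (tss_id), and the identifiers examined were those carried by 2 or more transcripts. Such identifiers numbered 3294 of 46393, which is 7.10%, and they were carried by 7590 of the 50689 coding transcripts, or 15.0%. The file holds 87740 transcripts at 35406 loci, and 57.8% of the transcripts have a protein identifier. The choice used the identifiers only and no measured level.

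The study sequenced polyadenylated RNA from the nucleus accumbens of C57BL/6 mice of 8 to 10 weeks, with 3 to 5 animals pooled per sample and 12 pools in 4 groups. Repeated cocaine was 20 mg/kg given intraperitoneally on each of 7 days. Acute cocaine was 6 days of saline followed by 1 day of cocaine at 20 mg/kg. Each had its own saline group, which received saline for 7 days. Each group had 3 pools, and tissue was taken 24 h after the last injection. The models are a single table of exon positions for the whole series, with no column for a pool. Which of the pools they were built from was not determined. They give no level, depth or replicate spread for a pool. Neither a comparison between cocaine and saline nor a check of the tissue against its marker genes was possible. The models use mm9 (NCBIM37), and all distances below are exact differences between annotated positions with no sampling error.

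A gene can make several messenger RNAs for 1 protein. When transcription begins at another promoter, or the first exons are joined differently, the sequence before the start codon (the 5′ untranslated region, 5′UTR) changes while the protein stays the same, and when the last exon or the cleavage site changes, the 3′ untranslated region (3′UTR) changes. An ATG in a 5′UTR can draw ribosomes away from the start codon, a hexamer AATAAA or ATTAAA shortly before the end marks where the polyadenylation machinery cuts, and an intron far behind the stop codon can send a transcript to nonsense-mediated decay. In neurons such untranslated parts are known to carry signals for transport, local translation and stability.

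The splice sites of Bdnf show how many first exons can precede 1 coding exon. Bdnf encodes brain-derived neurotrophic factor, and its 9 transcripts under 1 identifier (P22222, chr2:109516054-109567204, + strand) have 7 different first-exon ends. Below are the 7 donor sites in order of transcription, each with the last bases of the exon in front of the capitals, then the acceptor of the coding exon and the start codon that all 9 transcripts share. Capitals mark the first 2 bases of the intron (donors), its last 2 bases (acceptor) or the start codon, and all sequences here were read from the NCBIM37 genome in the 5′ to 3′ direction of the gene.
Bdnf donor at chr2:109516250-109516265: tcatccagGTattctt
Bdnf donor at chr2:109516462-109516477: agctccggGTtggtat
Bdnf donor at chr2:109516545-109516560: caaagaagGTaagcac
Bdnf donor at chr2:109517374-109517389: gagcccagGTccgagt
Bdnf donor at chr2:109532924-109532939: tgaaaaagGTgggttt
Bdnf donor at chr2:109534059-109534074: accctgagGTaggcga
Bdnf donor at chr2:109534771-109534786: atccgggaGTaggttg
Bdnf shared acceptor at chr2:109563523-109563542: tgcttccttcccacAGttcc
Bdnf start codon at chr2:109563551-109563566: agaagagtgATGacca

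The other sets show smaller or later changes. Cnr1, the cannabinoid receptor CB1, has a pair of first exons joined to 1 acceptor. Gad1, the gene of the GABA-synthesising enzyme GAD67, has 3 first exons joined to 1 acceptor. Of its donors, 2 lie 4 bases apart, so that the second GT lies inside the printed stretch of the first. In Arc, an activity-regulated gene of synapses, the transcripts use acceptors 3 bases apart in the 3′UTR. In Oprk1, the kappa opioid receptor, only the farthest of 3 ends has a hexamer in its last 40 bases, and this is the last sequence, with the hexamer in capitals. All genes in this set lie on the + strand except Arc.
Cnr1 donor at chr4:34012126-34012141: tgcgaaggGTaagacc
Cnr1 donor at chr4:34013662-34013677: tggctgagGTatgtat
Cnr1 shared acceptor at chr4:34030511-34030530: ttttccctcctgttAGggtt
Gad1 donor at chr2:70400382-70400397: gaaccgagGTgggtaa
Gad1 donor at chr2:70400386-70400401: cgaggtggGTaaatac
Gad1 donor at chr2:70401252-70401267: agtgcaagGTgactga
Gad1 shared acceptor at chr2:70401809-70401828: tcccttctgtttgcAGcctg
Arc acceptor at chr15:74500746-74500765: tgatttctcaccccAGcagt
Arc acceptor at chr15:74500743-74500762: tttctcaccccagcAGtgat
Oprk1 signal at chr1:5596182-5596201: gccttgaAATAAAgccaaaa

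Most shared identifiers were carried by few transcripts. Of the 3294, 2594 (78.75%) were carried by 2 transcripts, 510 by 3, 125 by 4, 43 by 5 and 22 by 6 or more, with 11 as the highest number. The identifiers lay at 2986 of 22206 coding loci (13.45%), which is 27.3% of the 10928 loci with 2 or more coding transcripts. At 265 of these loci more than 1 identifier was shared, and 2 loci had 5. Every shared identifier was confined to a single locus of the file, and 12 covered more than 1 gene name.

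The first exon differed far more often than the last one. A shared protein leaves mostly changes outside the coding sequence, so these counts follow in part from the choice of identifiers. The donor site that ends the first exon differed among the transcripts of 2289 identifiers (69.5%), and the acceptor that begins the last exon differed in 591 (17.9%). The donor alone differed in 2138 identifiers, the acceptor alone in 440, both in 151, and neither in 565, where the difference lay in an inner exon or in a single-exon transcript. In 1800 identifiers (54.6%) at least 1 pair of first exons did not overlap at all, against 331 (10.05%) for last exons. No chain of introns occurred in more than 1 transcript of the file, so a pair of transcripts that differed only in the position of its start or end is not represented in these models. Of the 4890 coding transcripts of the GENCODE M1 annotation whose names are not among the models, 1327 (27.1%) have an intron chain that the models hold under another transcript.

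**Figure D1:**
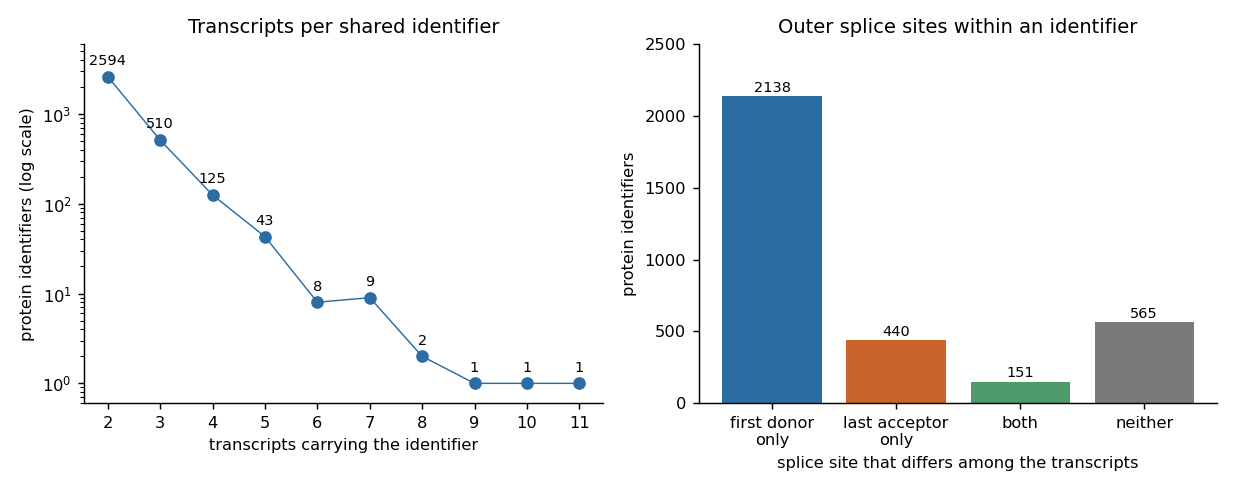
Left, number of identifiers (log axis) against the number of transcripts that carry one, which fell from 2594 identifiers with 2 transcripts to 1 identifier with 11. Right, number of identifiers in which the first donor, the last acceptor, both or neither differed among the transcripts; the donor alone differed in 2138 of 3294.

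Starts and ends of the transcripts also differed by unlike distances. The outermost starts of an identifier lay a median of 275.5 bases apart, with quartiles at 32 and 2498 bases, and the outermost ends a median of 33.5 bases apart, with quartiles at 1 and 1024. Starts were over 1000 bases apart in 1073 identifiers, over 10000 in 452 and over 100000 in 68. Ends were as far apart in 836, 95 and 9 identifiers, respectively. Where the donors differed the starts lay a median of 806 bases apart, and where 1 donor was shared the median was 23.

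The start site identifiers followed this division in part. Transcripts of 1960 shared protein identifiers (59.5%) fell into 2 or more start site groups, 1676 of them into 2, 240 into 3, 38 into 4, 5 into 5 and 1 into 6. Among the identifiers with different first donors 1812 of 2289 (79.2%) had more than 1 start site group, and among those with a single donor 148 of 1005 (14.7%) did. Different donors with 1 start site group, the pattern of a common start spliced in different ways, were found in 477 identifiers. Pairs of transcripts within a start site group began a median of 20 bases apart and at most 269, whereas pairs in different groups began a median of 1222 bases apart. The smallest distance between starts in different groups was 1 base, so a tss_id is not a fixed distance rule. A gap of over 100 bases between neighbouring starts was found in 1974 identifiers, close to the 1960 with several start site groups.

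These values were set beside other transcript pairs of the same loci. Of 5746 pairs that shared a protein identifier, 58.7% had different start site groups, 71.4% different first donors and 13.99% different last acceptors. Of 74947 pairs at 1 locus that did not share an identifier, the shares were 65.7%, 63.4% and 61.8%. Many of the second kind are fragments, since 18.25% of the other coding transcripts carry a GENCODE tag for an incomplete coding sequence and only 1.62% of the members do. Among transcripts without a tag for an incomplete coding sequence or end, the shares were 58.5%, 71.2% and 14.2% for pairs with a common identifier and 52.35%, 46.7% and 44.6% for pairs without, so the order for start site groups turned while those for donors and acceptors did not. A shared identifier fixes the stop codon, so last acceptors seldom differ without an unlike intron behind it. Where only 5′UTR introns differed, 32 of 2534 identifiers had different last acceptors. Pairs without a common identifier mostly differ in protein, so the contrast in acceptors follows in part from the choice of identifiers. Pairs of 1 locus share transcripts and are not independent, and these shares were not tested.

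The identifier stood for a common protein. Of the members 7577 (99.8%) were found by name in GENCODE M1, which uses the same genome build, and 7441 (98.0%) had the same exon positions there. In 3282 identifiers at least 2 members had an annotated coding sequence. In 3120 of these (95.1%) the coding sequence was the same base for base in position, and in 3255 (99.2%) the translated protein was the same. The remaining 162 identifiers with unlike coding positions comprised 62 with the same bases, 73 with the same protein from unlike bases or positions, and 27 with different proteins in GENCODE M1. Of these 27, which include Pax6 (2 identifiers), Foxa2 and Ano1, chosen here after their values were seen, only 2 had all exons as in that later annotation. In 8 of the 162 the coding parts lay apart from one another, as in the pancreatic amylases Amy2a3 and Amy2a2, Srp54a and Srp54b, Sprr2a1 and its neighbours, and Ott and Gm15093 on chromosome X. Each covers several neighbouring gene names merged in 1 locus, so these are not alternative transcripts of a single gene. Conversely, 19 of 46094 proteins at a locus appeared under more than 1 identifier.

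With the coding sequence fixed, the differences could be placed. For 3117 identifiers the coding sequence was the same and lay within the exons of all members. Introns differed in the 5′UTR alone in 2534 of these (81.3%), in the 3′UTR alone in 440 (14.1%) and in both in 143 (4.59%). Counted in bases rather than introns, the 5′UTR differed in 3027 identifiers (97.1%) and the 3′UTR in 2414 (77.45%), and over 50 bases were not shared in 2676 and 1642, respectively. Thus 3′UTRs often differed in where they ended and seldom in how they were spliced.

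Both kinds differed in their starts and ends. In the identifiers with unlike 5′UTR introns alone, 81.6% had different first donors, 66.4% had more than 1 start site group, and the outermost starts lay a median of 452 bases and the outermost ends 10 bases apart. In those with unlike 3′UTR introns alone, 86.1% had different last acceptors, 16.8% had more than 1 start site group, and the medians were 26 bases for starts and 830.5 bases for ends.

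**Figure D2:**
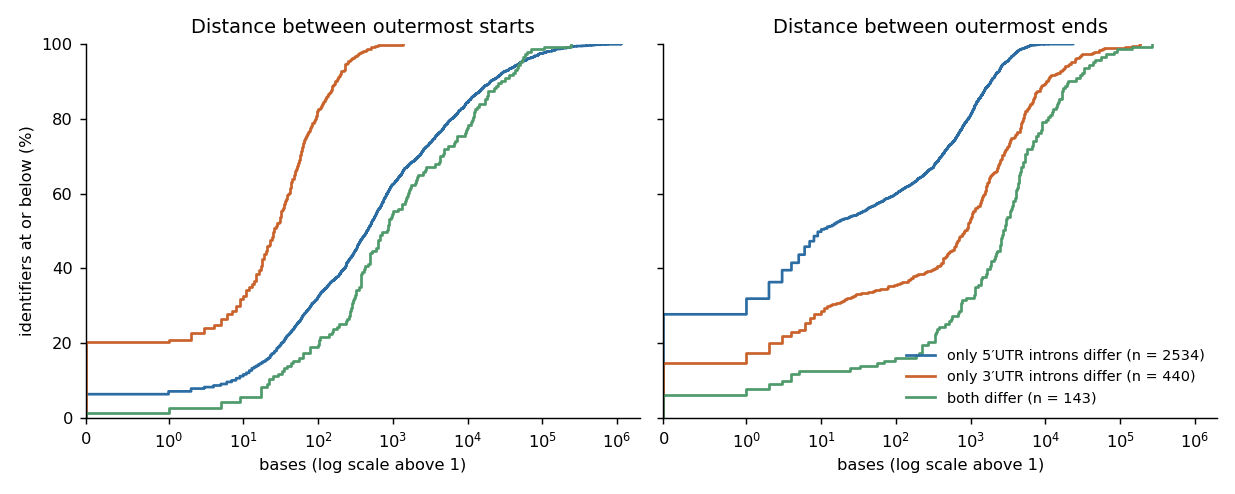
Cumulative share of identifiers (%) against the distance in bases (log axis above 1) between the outermost starts, left, and the outermost ends, right, of the transcripts of an identifier, for 2534 identifiers in which only 5′UTR introns differed, 440 in which only 3′UTR introns differed and 143 in which both did. The median start distance was 452 bases in the first class and 26 in the second, and the median end distance was 10 and 830.5 bases.

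The spliced 5′UTR changed in length as well as in content. In the 2677 identifiers with unlike 5′UTR introns, the longest and the shortest 5′UTR differed by a median of 127 bases, and the longest was a median of 1.76 times the shortest in the 2670 whose shortest was above 0. In 683 of them (25.5%) the start codon lay in the first exon of some transcripts and behind an intron in others, and in 1994 it lay past the first exon in every transcript. Of the 2196 with different first donors, 1003 (45.7%) spliced all first exons to 1 acceptor, as Bdnf did in part and Cnr1 and Gad1 did throughout. In the 583 identifiers with unlike 3′UTR introns, 402 had a transcript with no 3′UTR intron beside one with an intron.

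Bdnf had the most first donors among the listed genes. Its 9 transcripts began at 6 positions spread over 18574 bases and fell into 5 start site groups. The first 3 began at the same base, 47506 bases before the start codon, and ended their first exon at 3 different donors, which gave 5′UTRs of 225, 437 and 520 bases. The 4th began 46309, the 5th 30967 and the 6th 29840 bases before the start codon, with 5′UTRs of 152, 360 and 368 bases. The last 3 began 28934, 28934 and 28932 bases before it, had 1 donor in common, and 2 of them contained a further small exon, so that the 5′UTRs were 174, 249 and 244 bases. The 5′UTRs held 0, 0 and 1 ATG in the first 3 transcripts, 1, 4 and 3 in the next 3, and 0, 1 and 1 in the last 3, so transcripts with and without an upstream ATG encode the same 750-base coding sequence. The 3′UTR was 2854 bases in 8 transcripts and 2895 in the other, and neither end had a hexamer in its last 40 bases. Bdnf is known for a short and a long 3′UTR, and all 9 transcripts carry a long one.

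**Figure D3:**
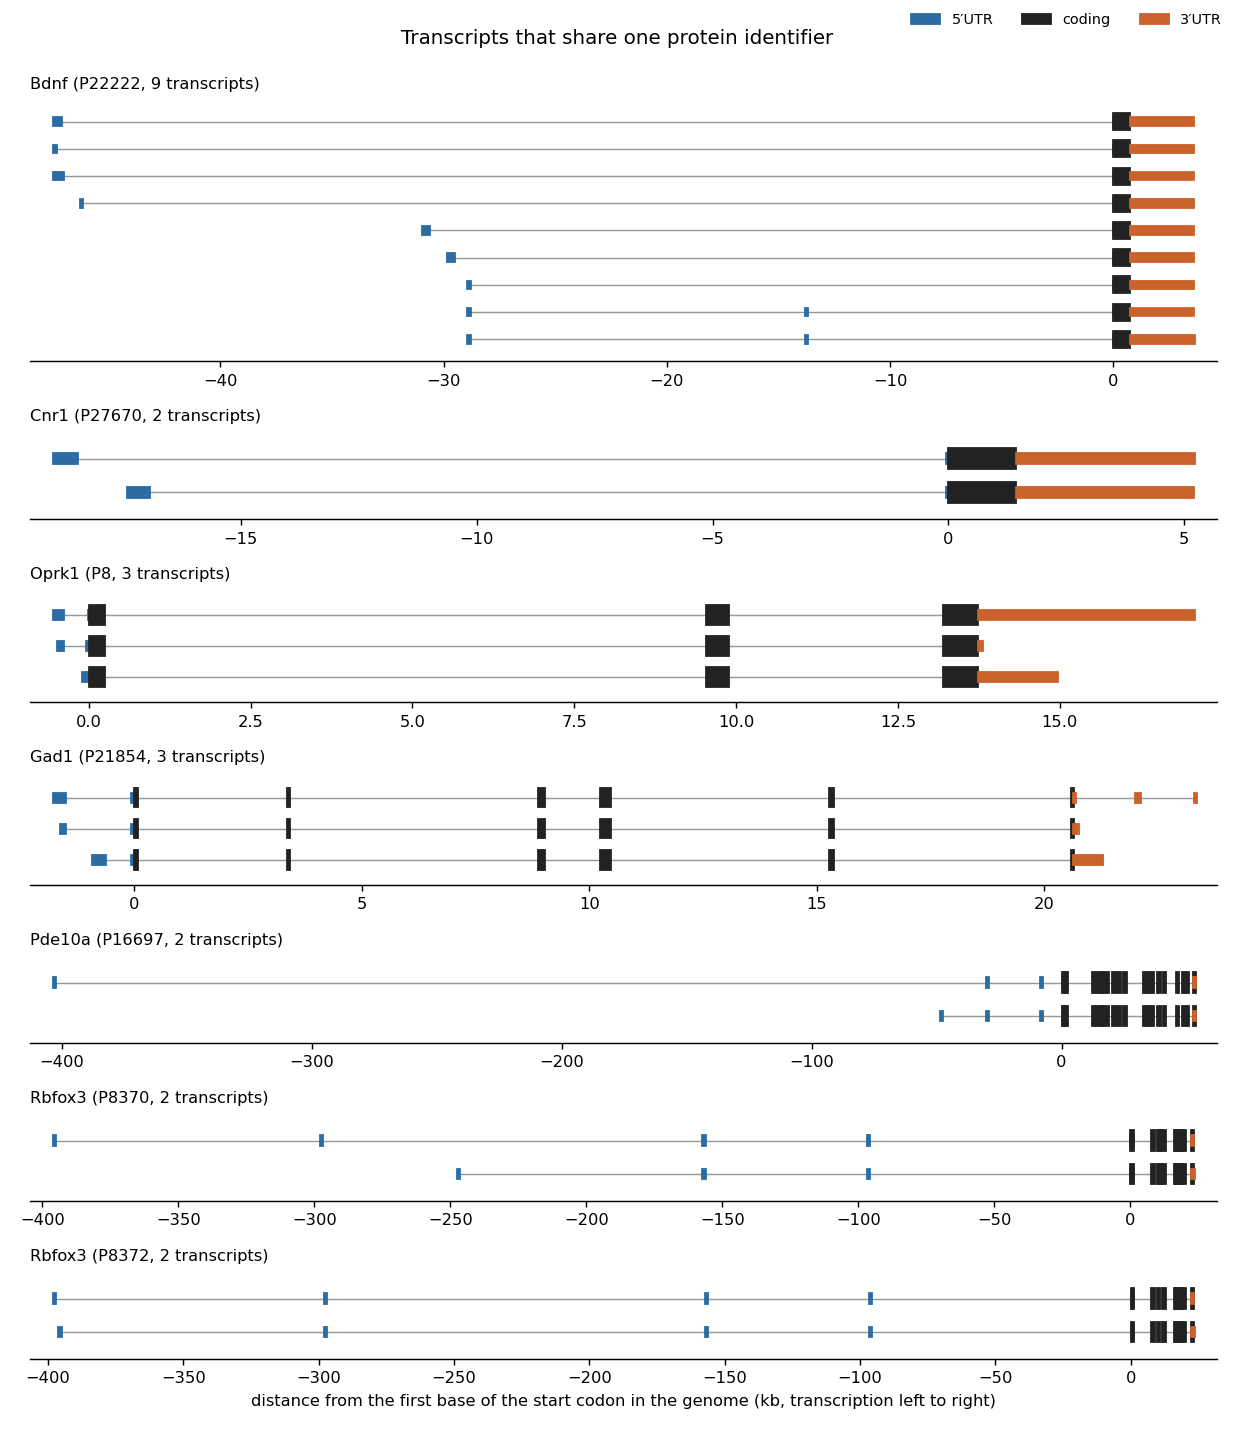
Exons of the transcripts of 7 shared identifiers of 6 genes, drawn to scale against the distance in the genome (kb) from the first base of the start codon, with transcription from left to right; thin blue boxes are 5′UTR, tall black boxes coding sequence, thin orange boxes 3′UTR, and very short exons are widened to be visible. The 9 Bdnf transcripts share the coding exon and spread their first exons over 18574 bases, and the Pde10a starts lie 355054 bases apart.

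Genes of known roles in the nucleus accumbens were listed by function, and the receptors are described first. Of 66 listed genes found in the models, 20 had a shared identifier, 23 identifiers in all; 12 genes had different first donors, 6 different last acceptors and 9 more than 1 start site group. Of 22507 coding gene names, 3007 had a shared identifier, 2124 with different first donors, 565 with different last acceptors and 1827 with more than 1 start site group. Among 10 receptor genes, 4 had one, namely Oprk1, Oprm1, Chrm1 and Cnr1. The kappa opioid receptor Oprk1 (P8) had 3 transcripts whose 5′UTRs were 185, 151 and 108 bases with no upstream ATG, and whose 3′UTRs were 3347, 82 and 1230 bases. Oprm1, the mu opioid receptor, had 3 transcripts (P3663) with a common start and 5′UTRs of 229, 358 and 403 bases that held 3, 5 and 6 upstream ATGs. A further pair of Oprm1 transcripts (P3668) was annotated as nonsense-mediated decay in both members, with ends 57413 bases apart.

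Chrm1, the M1 muscarinic receptor, shared start and end between its transcripts and differed only by an additional 5′UTR exon, which took the 5′UTR from 524 to 616 bases and the upstream ATGs from 5 to 9. The Cnr1 starts lay 1570 bases apart in different start site groups. The Cnr1 5′UTRs were similar in length, 589 and 555 bases, but held 1 and 8 upstream ATGs, and the ratio of observed to expected CpG over 250 bases before to 50 after the start was 0.91 at the outer start and 0.31 at the inner one. Both ends of Cnr1, 12 bases apart, lay behind the same AATAAA.

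Of 15 listed transcription factors and immediate early genes, 7 had a shared identifier, 3 with different first donors, 1 with different last acceptors and 1, the glucocorticoid receptor Nr3c1, with more than 1 start site group. The Nr3c1 starts lay 828 bases apart, with 5′UTRs of 120 and 115 bases. Zic1, a zinc finger factor, had 5′UTRs of 751 bases with 4 upstream ATGs and 398 bases with 1, and 3′UTRs of 3511 and 997 bases, of which only the longer ended behind a hexamer. Egr1 had 5′UTRs of 246 and 282 bases from a common start 282 bases before the start codon, with 1 upstream ATG each. The intron in the shorter one is thus under 70 bases, and whether it is spliced was not tested. Mef2a, a factor of neuronal activity, had 5′UTRs of 336 and 356 bases with 2 upstream ATGs each. Arc starts were 18 bases apart, and both Arc transcripts had 2 introns behind the stop codon, with the last junction 754 and 757 bases past it. Arc is known as a natural target of nonsense-mediated decay, and here both transcripts were typed protein_coding.

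Signalling genes of medium spiny neurons included the widest start distance among the listed genes. Pde10a, a cyclic nucleotide phosphodiesterase rich in the striatum, began 403735 bases before the start codon in one transcript and 48681 in the other, 355054 bases apart, and both first exons were joined to the same second exon. Its 5′UTRs were 617 bases with 8 upstream ATGs and 227 bases with 5. Ppp1r1b, which encodes DARPP-32, had a common start, and splicing of an intron before the start codon took the 5′UTR from 600 bases with 4 upstream ATGs to 142 bases with 1. Gad1 had 3 start site groups within 857 bases, 5′UTRs of 355, 205 and 368 bases with no upstream ATG, and 3′UTRs of 170, 144 and 665 bases. The coding sequence shared by these 3 Gad1 transcripts is 672 bases and is not taken here as that of full-length GAD67. The transcript with 2 introns behind the stop codon, the last junction 156 bases past it, was typed nonsense-mediated decay. The others were typed protein_coding. At Gnas, the locus of the stimulatory G protein alpha subunit, the shared identifier (P23091) covered a pair of transcripts with 1 start. Their ends lay 49849 bases apart, with 2 and 11 introns behind the stop codon. The coding sequence of P23091 is not taken here as that of the alpha subunit.

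Splicing regulators and the genes that the study followed up gave the remaining listed cases. Rbfox3, the neuronal splicing factor detected as NeuN, had 2 shared identifiers, with starts 148509 bases apart for P8370 and 2025 bases apart for P8372. In each of them the transcript with the longer 3′UTR (1475 and 1479 bases) ended behind a hexamer and the transcript with the shorter one (36 and 84 bases) did not. Celf1, an RNA-binding regulator of splicing and stability, had 2 shared identifiers of 3 transcripts each, with 3 start site groups in each. Its starts lay 58121 (P22073) and 47288 (P22075) bases apart. The innermost starts gave 5′UTRs of only 11 and 0 bases, respectively, and whether these transcripts are complete at the start was not tested. The related Celf2 differed in its last exon, with 3′UTRs of 7119 and 3851 bases. Dvl1, a Wnt signalling protein, had 5′UTRs of 333 and 176 bases.

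The listed names Drd1, Penk1 and A2bp1 did not occur in the models under that spelling. The other symbols Drd1a, Penk and Rbfox1 were also listed, occurred in the models and had no shared identifier.

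The identifiers with the most transcripts were mostly changes of the 5′UTR. Eif5a, a translation factor that carries hypusine, had 11 transcripts in 6 start site groups within 1328 bases, with 5′UTRs from 44 to 339 bases and 0 to 5 upstream ATGs. All 11 Eif5a transcripts had an intron 11 bases behind the stop codon. Hk1, hexokinase 1, had 10 transcripts in 2 start site groups with 5′UTRs from 106 to 794 bases and 0 to 5 upstream ATGs. The Hk1 transcripts all stop at the same base within the coding sequence, of which the annotation holds only 148 bases, so the identifier rests on a fragment. Gngt2, a G protein gamma subunit, had 7 transcripts in 5 start site groups with a common 3′UTR of 126 bases, and 1 of them held 24 upstream ATGs in a 5′UTR of 1251 bases. Agpat3, an acyltransferase of phospholipid synthesis, had 5 transcripts in 5 start site groups over 57048 bases. Chchd7 had 7 transcripts, of which 1 continued 7554 bases past the stop codon through 4 introns and was typed nonsense-mediated decay.

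The widest start distances within a gene exceeded those of the listed genes. Lrrc4c, the netrin-G1 ligand, had starts 1149488 bases apart, and the 5′UTRs held 19, 22 and 13 upstream ATGs in 1010, 1179 and 858 bases. Lingo2, a leucine-rich repeat protein of neurons, had starts 1105811 bases apart in 4 start site groups. Dab1, the adaptor of reelin signalling, had starts 747906 bases apart, Fhit had starts 708574 bases apart and Zbtb20, a transcription factor, 602656. In Zbtb20 the first transcript also had a 3′UTR of 23858 bases, against 325 and 393 in the others.

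The 5 widest end distances within a single gene name involved transcripts with introns behind the stop codon. The 2 Glis3 transcripts ended 269483 bases apart, 1 of them with 7 introns behind the stop codon, and both were typed nonsense-mediated decay. Dnase2b ends lay 176172 bases apart, Obox3 ends 145481, Themis ends 144512 and Mup15 ends 135749. Obox3 and Mup15 belong to families of near-identical copies, where the assignment of exons is uncertain. Identifiers that cover more than 1 gene name are not counted in this order. Among them AF064781 and Palm2 had ends 186753 bases apart, Ott and Gm15093 had ends 166851 bases apart, and Cox16 and AC154908.2 had ends 24583 bases apart.

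Transcript types of GENCODE M1 differed within 125 identifiers (3.795%), and in 123 of them nonsense_mediated_decay stood beside protein_coding. A further 123 identifiers held only nonsense-mediated decay transcripts. Members were typed nonsense_mediated_decay in 5.21% of cases and other coding transcripts in 5.97%. Of 119 mixed identifiers with known untranslated parts, 115 (96.6%) differed in 3′UTR introns. The annotation assigns this type largely by the distance of the last junction from the stop codon, so the following values describe the annotation. An intron in the 3′UTR was present in 377 of 384 nonsense-mediated decay members and in 677 of 6810 protein_coding members (9.94%). The last junction lay over 50 bases past the stop codon in 371 of the 377 (98.4%), at a median of 464 bases, and in 184 of the 677 (27.2%), at a median of 26 bases. Thus 184 transcripts with a distant junction, those of Arc and of P23091 at the Gnas locus among them, were typed protein_coding.

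**Figure D4:**
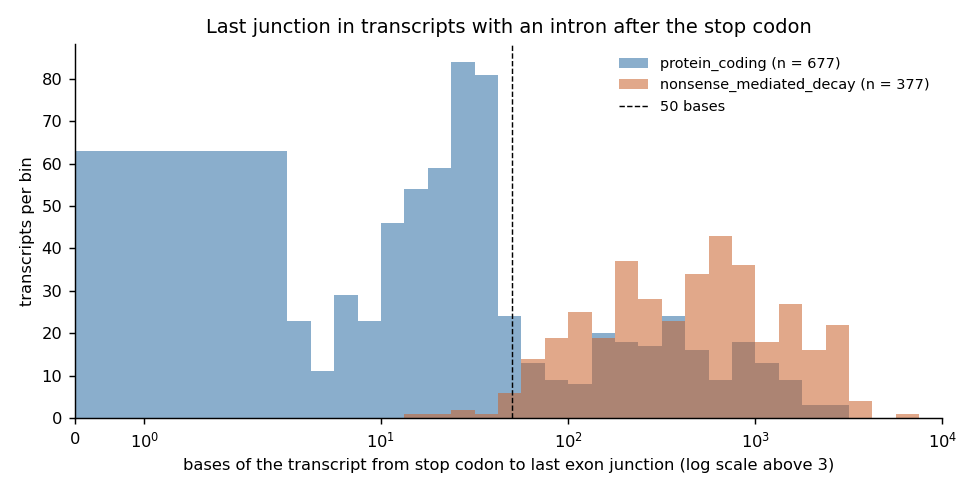
Number of transcripts per bin against the distance in bases (log axis above 3) from the stop codon to the last exon junction, for member transcripts with an intron behind the stop codon, 677 typed protein_coding and 377 typed nonsense_mediated_decay; the dashed line is at 50 bases. The medians are 26 and 464 bases, and 184 protein_coding transcripts lie past the line.

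Upstream ATGs differed within most identifiers. The number of ATGs in the 5′UTR differed among the transcripts of 1919 of 3117 identifiers (61.6%), and in 808 (25.9%) some transcripts had none and others at least 1. In 668 identifiers all transcripts had 0, and in 530 the number was the same and above 0. At least 1 upstream ATG was found in 66.3% of the members and in 42.7% of the other coding transcripts with a complete coding sequence, whose 5′UTRs were shorter, with medians of 221 bases in members and 115 in the others. Within 2667 identifiers with unlike 5′UTR introns and lengths, the longest 5′UTR held more ATGs than the shortest in 1501 (56.3%), fewer in 281 and the same number in 885. The part of 5′UTR length in this count was not tested.

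Starts of the same identifier lay in unlike base composition in part of the identifiers. In the 1960 identifiers with several start site groups, the ratio of observed to expected CpG over 250 bases before to 50 after the start had a median of 0.61 at the outermost start and 0.50 at the innermost. All starts of coding transcripts had a median of 0.56. The ratio was above 0.6 at 51.3% of outermost, 42.1% of innermost and 47.2% of all starts. In 466 identifiers only the outermost start was above 0.6, in 285 only the innermost, in 540 both and in 669 neither.

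The nearest and the farthest ends of identifiers differed in how often they had a polyadenylation signal. AATAAA or ATTAAA, searched on the strand of the gene, occurred in the last 40 bases of 3818 of 6150 member ends (62.1%), of 48.5% of all coding ends and of 46.8% of ends of other coding transcripts. Without transcripts tagged as incomplete at the end the shares were 63.0%, 55.5% and 54.5%. In the 2474 identifiers with different ends, the hexamer was found before 48.4% of the nearest ends and 73.1% of the farthest ends. Without the tagged transcripts the shares were 49.2% and 73.7%. Any difference in position counted as a different end. Over all shared identifiers the outermost ends lay a median of 33.5 bases apart, so the windows of an identifier can overlap, as those of Cnr1 do. Among the 20 identifiers of listed genes with different ends, only the nearest and the farthest end were compared. The classes that follow were not counted over all 2474 identifiers, so whether they are usual was not tested. The hexamer was found only before the farthest end in 9, among them Oprk1, Zic1 and both of Rbfox3. It was found only before the nearest in 1 (P3668 of Oprm1), before both in 4 and before neither in 6, among them Bdnf and Gad1. Gad1 has an end between these, 665 bases past the stop codon, with a hexamer, and so has P22075 of Celf1. A missing hexamer says only that these letters are not in the window.

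**Figure D5:**
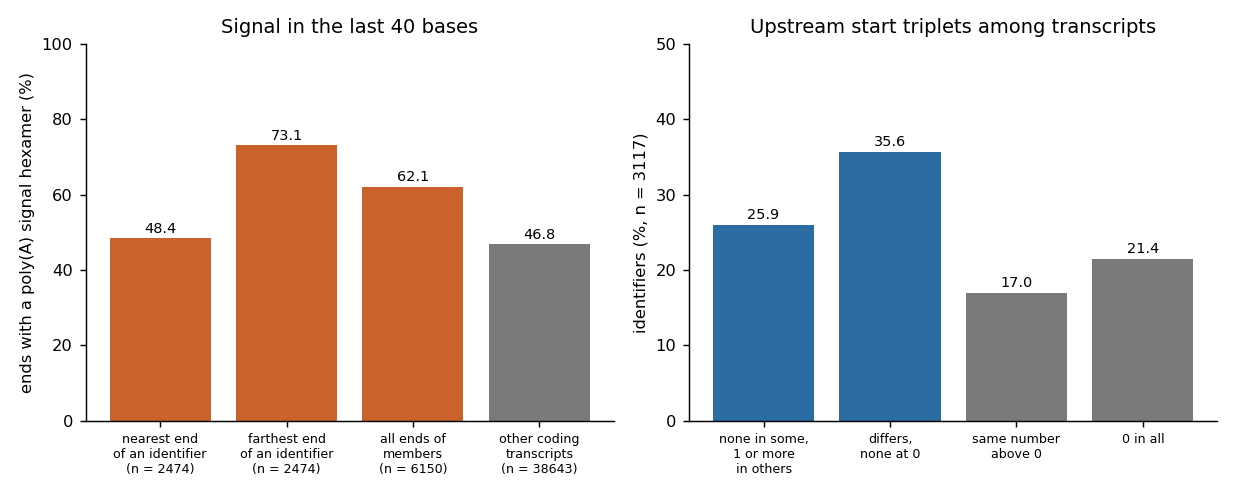
Left, share of ends (%) with a poly(A) signal hexamer in the last 40 bases, for the nearest and the farthest end of 2474 identifiers, for all 6150 member ends and for 38643 ends of other coding transcripts; the farthest ends reach 73.1% and the nearest 48.4%. Right, share of 3117 identifiers (%) by how the number of upstream start triplets varied among the transcripts, with 25.9% having none in some and at least 1 in others.

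The introns that distinguish the transcripts were not all of the usual kind. Introns begin with GT and end with AG in 99.15% of the 22202 introns that all members of an identifier share, in 95.6% of the 6251 5′UTR introns found in only some members and in 89.1% of the 1335 such introns of the 3′UTR. Introns that were neither GT-AG, GC-AG nor AT-AC made up 0.0496%, 2.37% and 9.44%. An intron shared by several transcripts has more support, so introns present in a single coding transcript were also set side by side. Other end pairs then made up 2.90% of 4512 5′UTR introns and 19.6% of 612 3′UTR introns, against 4.72% of 46986 introns found once in transcripts without a shared identifier at loci with several coding transcripts. Of the 612, 7.68% were shorter than 70 bases, against 1.04% of the 46986. Jun, an immediate early gene known to have no intron, and Mef2d, a factor of neuronal activity, are examples among the listed genes, and Dvl1 has a donor GC. Capitals mark the outer 2 bases of the intron, and Jun lies on the - strand.
Jun donor at chr4:94718622-94718637: agcatcgaGAgcggct
Jun acceptor at chr4:94718539-94718558: ggtaacaagtggccGGgagc
Mef2d last acceptor at chr3:87973629-87973648: ctctctgcgtgctcCTtgtc
Dvl1 donor at chr4:155221688-155221703: gaacgggtGCgagccg

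The Jun transcripts began 951 and 900 bases before the start codon, the second also lacks the stretch between these sites, and their 5′UTRs were 951 and 813 bases. Their ends lay 1203 bases apart. The Mef2d transcripts had 3′UTRs of 1577 and 1502 bases. Whether such a stretch is spliced in the nucleus accumbens was not tested, since the models hold no read counts.

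Coding sequences under a shared identifier were of ordinary length. Among complete coding sequences the median was 1194 bases for shared identifiers and 1122 for identifiers of 1 transcript. The 3′UTRs of members with a complete coding sequence had a median of 699 bases, against 529 in the other coding transcripts.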

How the data were processed

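The RNA-seq gene models deposited for the series of 12 nucleus accumbens pools were used. Per the labels, the submitters' processing notes list mm9 as the build and, with no version or option, Cufflinks, Cuffdiff, TopHat and CASAVA. The deposited file lists exon positions (other values, levels or read counts, are not part of it) with gene, transcript, tss_id and p_id, built on Ensembl release 62 models. Depth therefore gives no precision here. Introns, outer splice sites and start and end distances were computed per identifier with Python 3.11.15 and NumPy 2.4.6. Coding positions, transcript types and completeness tags came from GENCODE M1 (Ensembl release 65, same build), matched by transcript name, and bases from the NCBIM37 genome with pysam 0.24.0 and samtools 1.23.1. The functions for untranslated parts, introns and splice sites were tested on simulated data. Members and lists were chosen with earlier results of these data known. Named were listed genes, the 10 identifiers with most transcripts, the 5 with the widest start and end distances, the 5 with most start site groups, and up to 10 covering several gene names. No test was run, since no group was compared.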

Additional observations from a re-analysis of the deposited data

How the results depend on the processing

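No paired analysis was possible because the models hold no values per pool. Of 30 alternatives for 12 results, 22 stayed within 1.5 times a count or within the 95% Wilson interval of a share, and 8 moved. The interval served only as a cut and measures no spread, since the shares are full counts and pairs are not independent. Of the 30, 6 were chosen after seeing the data. Identifiers with an unlike last exon rose from 591 to 2474 when any end difference counted and fell to 331 when last exons had to lie apart. Identifiers with the same introns rose from 0 to 697 when only the span common to all members was compared. Identifiers with unlike 3′UTRs went from 2414 to 583 by introns, and those of mixed type from 125 to 30 by the source labels of the file. All 30 hold a transcript with the source label Cufflinks, which is not a transcript type. With that label left out, 0 of 3294 identifiers had 2 or more types in the file. Pairs with different start site groups were 56.8% with identifiers weighted equally. Ends with a hexamer were 49.6% for AATAAA alone and 64.1% for a window of 60 bases. Counts of start site groups, first donors, coding sequences and upstream ATGs stayed within 1.5 times. The models limit what can be seen, since transcripts with one intron chain are merged, and transcript ends tagged incomplete can mimic a short 3′UTR.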
